A study of Mus musculus with 8 samples.

Results

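The 6 genes described here, Slc9a2, Slc9a3, Slc9a5, Slc9a7, Slc9a8 and Slc9a9, encode sodium-proton exchangers of the solute carrier 9 family. They were chosen by gene symbol among 22180 genes measured on arrays of mouse hearts, each through its only probe set, and with the difference between the genotypes in view. The values that compare the genotypes are therefore given for them as a description with no test. The study compared 4 hearts with a CITED4 knockout and 4 floxed control hearts, all from male C57Bl6N mice and all taken 1 week after surgery that narrows the aortic arch (transverse aortic constriction, TAC) and so puts the left ventricle under pressure load. CITED4 does not bind DNA itself; it regulates transcription through the histone acetyltransferases CBP and p300 and through TFAP2 factors. The labels call the controls floxed, and no heart without TAC is compared here. They give neither the driver of the recombinase, nor whether the controls carried it, nor the age of the mice. The labels number the samples but do not say how animals or litters were assigned, so an error below measures the spread between these samples.

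Sodium-proton exchangers let sodium into the cytosol or an organelle in exchange for protons and so set pH and volume. Of the genes described, Slc9a2 and Slc9a3 encode exchangers known from the apical surface of intestinal and renal epithelium, and Slc9a5 one known from brain. Slc9a7 encodes an exchanger of the trans-Golgi network, Slc9a8 one of the Golgi and of apical surfaces, and Slc9a9 one of recycling endosomes.

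Slc9a2 was lower in the knockout, with all 4 knockout hearts below all 4 controls, and Slc9a7 was higher in the knockout on average, led by 2 hearts. Of the 6 genes 4 were lower and 2 higher in the knockout on average. The differences of the other 4 lay within 0.15 of 0 on the log2 scale. The groups did not overlap in 1 of the 6, Slc9a2, a pattern shown by 5.23% of the 15086 genes tested (2.9% lower and 2.33% higher in the knockout). The genes were chosen on this contrast, so their count is not read against these shares. All 6 had a mean signal above the filter on low values, 3.80 (log2), and none of the 15086 genes, the 6 included, was called by limma at an adjusted p of 0.05 (0% in each direction). An unadjusted p under 0.05 was found for 1697 genes, 11.2% of those tested (5.64% higher and 5.61% lower). The median difference was -0.08 over the 6 genes and 0.00 over all genes tested, of which 7721 were higher and 7365 lower. Here and below a signal is a log2 array intensity, a difference is knockout minus control on that scale with its limma standard error (SE), and an SD is that of 4 hearts.

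The arrays themselves were alike, with medians from 4.29 to 4.33 and correlations between arrays from 0.979 to 0.988. Cited4, the targeted gene, had signals of 5.89, 5.76, 6.05 and 6.22 in control and 5.26, 5.15, 4.83 and 5.02 in knockout hearts, with no overlap. The difference was -0.91 ± 0.12 (exact two-sided permutation p = 0.0286, the smallest that 4 against 4 allow; adjusted p = 0.277 with limma). Whether its probes lie in the deleted part is unknown here. The 9 ventricular cardiomyocyte markers, from Myh6 to Pln, had means of 8.09 to 12.8, well above the filter given above. Knockout replicate 2 stood apart in the 5 atrial markers, with a mean signal of 6.94 against 4.33 to 4.99 in the other arrays. Knockout replicates 1 and 4 had the highest mean signals of 9 fibroblast markers and the lowest of the ventricular markers.

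Slc9a2 (Entrez gene 226999) showed the largest difference of the 6. Its signals were 5.85, 5.92, 5.93 and 6.16 in control replicates 1 to 4 and 5.46, 5.47, 5.35 and 5.28 in knockout replicates 1 to 4. The lowest control heart lay 0.38 above the highest knockout heart, a gap wider than the range of either group. The means were 5.96 ± 0.14 and 5.39 ± 0.09 (SD, n = 4), a difference of -0.57 ± 0.09 (SE; 95% interval -0.78 to -0.37), so the knockout signal was 67.2% of that of the controls (58.2% to 77.5%). Among all genes tested 51 were lower by more. With single arrays left out the difference ran from -0.61 to -0.51, and without knockout replicates 1 and 4 together, an alternative chosen after seeing the data, it was -0.55. Knockout replicate 2, with its high atrial markers, had the highest knockout signal of Slc9a2, and without that array the difference was -0.60. In bulk tissue, fewer cells of a type and less RNA per cell cannot be told apart. Of 7 markers of epithelium, the tissue where this exchanger is best known, 4 passed the filter, among them Krt18 (5.24 in control and 6.22 in knockout hearts). The defining marker Epcam had mean signals of 2.57 in control and 2.64 in knockout hearts and Krt19 3.58 and 3.48, all under the filter of 3.80. The whole list had mean signals of 4.10 to 4.25 in control and 4.23 to 4.57 in knockout hearts, with 6 of 7 higher in the knockout, of which Krt18 by the most (0.98). The part of epithelial cells in the Slc9a2 values was not tested.

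**Figure D1:**
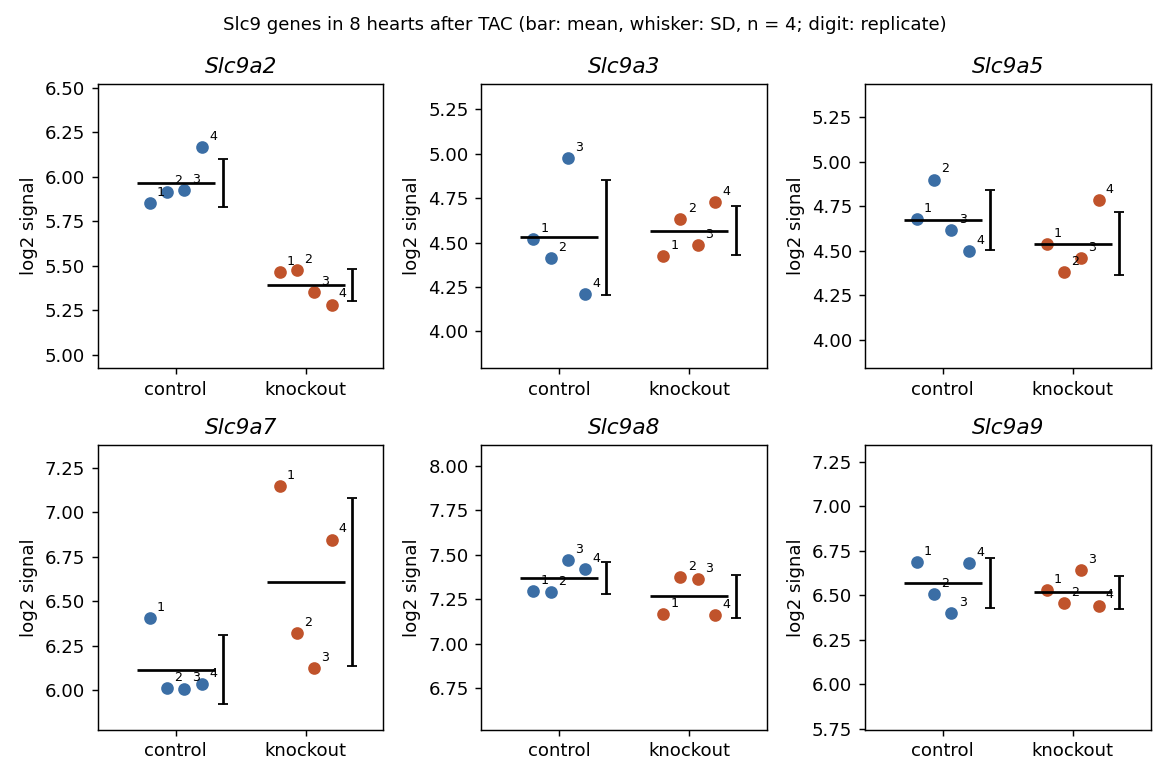
Log2 signal of the 6 exchanger genes in each heart (points, numbered by replicate) with the group mean (bar) and SD (whisker, n = 4), each panel spanning the same range. The 4 knockout hearts lie below the 4 control hearts for Slc9a2, whereas for Slc9a7 knockout replicates 1 and 4 lie above all others and replicates 2 and 3 among the controls.

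Slc9a3 (Entrez gene 105243) and Slc9a5 (Entrez gene 277973) differed little between the genotypes. For Slc9a3 the signals were 4.52, 4.41, 4.97 and 4.21 in control and 4.42, 4.63, 4.49 and 4.73 in knockout hearts. All 4 knockout values lay inside the control range, which was the widest control range of the 6 genes, and the difference was 0.04 ± 0.15 (95% interval -0.29 to 0.37). Its sign turned when control replicate 2, control replicate 4 or knockout replicate 4 was left out, with values down to -0.07, and it was 0.19 without control replicate 3. For Slc9a5 the signals were 4.68, 4.90, 4.61 and 4.50 in control and 4.54, 4.38, 4.46 and 4.79 in knockout hearts. Knockout replicates 2 and 3 lay below every control heart and replicate 4 near the top of the control range, so the groups overlapped. The difference of Slc9a5 was -0.13 ± 0.12 (95% interval -0.39 to 0.12), from -0.21 without knockout replicate 4 to -0.06 without control replicate 2. These intervals leave room for a change of about the size of the SD within groups in either direction for Slc9a3, and for a fall larger than that SD for Slc9a5.

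Slc9a7 (Entrez gene 236727) had the widest spread of the 6. Its signals were 6.41, 6.01, 6.01 and 6.03 in control and 7.15, 6.32, 6.12 and 6.85 in knockout hearts. Knockout replicates 1 and 4 lay above every control heart, knockout replicates 2 and 3 below control replicate 1 and above the other controls. The means were 6.12 ± 0.19 and 6.61 ± 0.47 (SD, n = 4), a difference of 0.49 ± 0.20 (SE; 95% interval 0.04 to 0.95), or 141% of the control signal. Among all genes tested 194 were higher by more, and 3.37% had a larger SD within groups. The difference was 0.31 without knockout replicate 1, 0.42 without knockout replicate 4 and 0.11 without both.

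The order of the hearts in Slc9a7 was close to their order in fibroblast markers. Over the 9 markers, collagen genes and others such as Pdgfra and Postn, the mean signal was 10.03 in knockout replicate 1, 9.94 in knockout replicate 4, 9.78 in control replicate 1 and 9.65 in knockout replicate 2. The same 4 hearts, in the same order, had the highest Slc9a7 signals. The other hearts had marker means from 9.01 to 9.33 and Slc9a7 signals from 6.01 to 6.12. The markers were higher in the knockout for 8 of 9, with group ranges of 9.01 to 9.78 in control and 9.27 to 10.03 in knockout hearts, and Dcn (-0.04) was lower. The differences were uneven. They were largest for Col1a2 (0.88), Col1a1 (0.85), Col3a1 (0.62), Postn (0.56) and Tcf21 (0.55), and small for Lum (0.185), Pdgfra (0.09) and Dpt (0.06). Mean macrophage marker signals ran from 7.89 to 8.17 in control and 8.02 to 8.38 in knockout hearts (8 of 9 higher), with knockout replicate 1 highest and knockout replicate 4 at 8.02. The likeness was not particular to fibroblast markers. The 6 smooth muscle and pericyte markers had their highest means in the same 4 hearts, at 8.04 in knockout replicate 4, 7.99 in knockout replicate 1, 7.92 in control replicate 1 and 7.81 in knockout replicate 2. Their group ranges were 7.59 to 7.92 in control and 7.65 to 8.04 in knockout hearts, with 3 of 6 higher and 3 lower. The epithelial markers were also highest in knockout replicates 1 and 4, at 4.57 and 4.54. The part of these cell types in the Slc9a7 values was not tested. The 4 hearts with the highest fibroblast markers were control replicate 1 and knockout replicates 1, 2 and 4. In marker level the genotypes were not fully separate. Control replicate 1 (9.78) lay above knockout replicates 2 and 3 (9.65 and 9.27), and control replicate 4 (9.33) above knockout replicate 3. Control replicate 1 had the lowest Slc9a2 signal of the controls, 5.85 against 5.92 to 6.16. The knockout hearts among the 4 were at 5.28 to 5.47, and knockout replicate 3 was at 5.35. The part of the marker level in the Slc9a2 values was not tested.

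**Figure D2:**
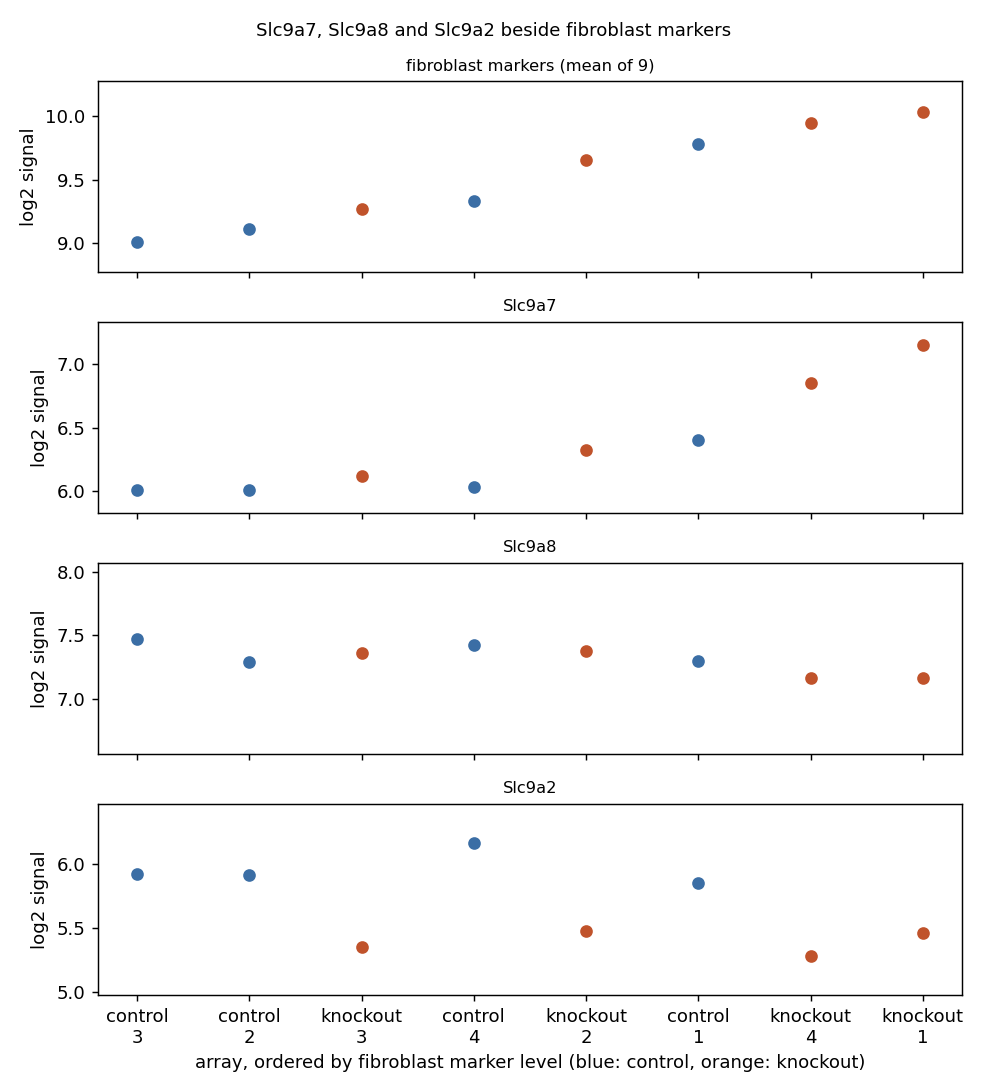
Log2 signal in the 8 arrays, ordered by the mean of 9 fibroblast markers (top panel), for Slc9a7, Slc9a8 and Slc9a2, with control hearts in blue and knockout hearts in orange. The 4 arrays with the highest markers also have the highest Slc9a7 signals (6.32 to 7.15), Slc9a8 is lowest in the 2 arrays at the right, and Slc9a2 separates by genotype along the whole axis.

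Slc9a8 (Entrez gene 77031) and Slc9a9 (Entrez gene 331004) also differed little between the genotypes. Slc9a8 signals were 7.30, 7.29, 7.47 and 7.42 in control and 7.17, 7.38, 7.36 and 7.16 in knockout hearts. Knockout replicates 1 and 4, the hearts with the highest Slc9a7, lay below every control heart, and knockout replicates 2 and 3 lay inside the control range. The difference was -0.10 ± 0.09 (95% interval -0.30 to 0.09) and 0.00 without those 2 hearts. In them the mean of the ventricular cardiomyocyte markers was also lowest, 11.32 and 11.34 against 11.50 to 11.62 in the other hearts, and its part in the Slc9a8 values was not tested. Over the list 7 of 9 ventricular markers were lower in the knockout, with group ranges of 11.54 to 11.62 in control and 11.32 to 11.58 in knockout hearts. Slc9a9 signals were 6.69, 6.50, 6.40 and 6.68 in control and 6.53, 6.45, 6.64 and 6.44 in knockout hearts. All 4 knockout values lay inside the control range, and the difference was -0.05 ± 0.09 (95% interval -0.26 to 0.16). It ran from -0.11 without control replicate 3 to -0.01 without control replicate 1.

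**Figure D3:**
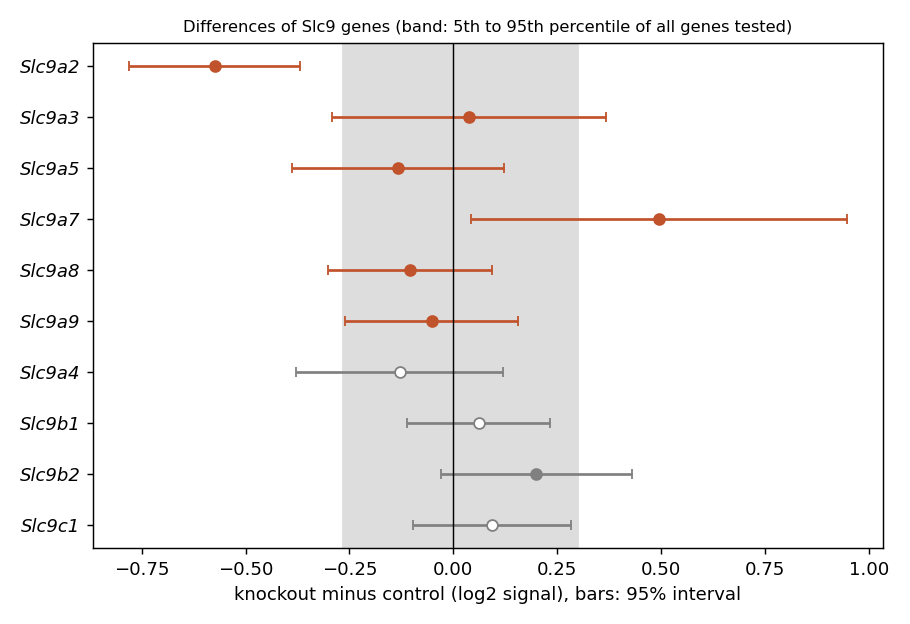
Knockout minus control difference (log2) with its 95% interval for the 6 exchanger genes (orange) and 4 other Slc9 genes (grey; open symbols are below the filter on low values), against the band that holds the 5th to 95th percentile of differences of all genes tested (-0.26 to 0.30). Slc9a2 at -0.57 and Slc9a7 at 0.49 lie outside the band.

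**Figure D4:**
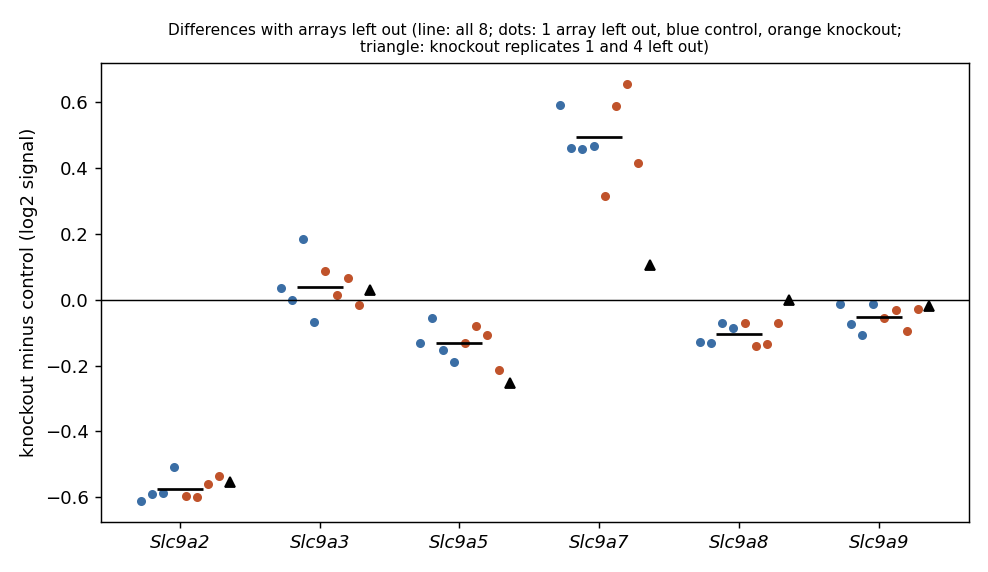
Knockout minus control difference (log2) of the 6 genes with all 8 arrays (line), with each array left out (dots, blue for a control and orange for a knockout array) and with knockout replicates 1 and 4 left out together (triangle). Slc9a2 stays between -0.61 and -0.51, while Slc9a7 drops from 0.49 to 0.11 at the triangle.

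The 6 genes showed no common pattern of variation within the genotypes. After removal of each genotype's mean, the 15 pairs of members had correlations over the 8 arrays from -0.81 (Slc9a7 and Slc9a8) to 0.37 (Slc9a2 and Slc9a8, and Slc9a5 and Slc9a7), with a median of -0.06 and 5 of the 15 above 0. Slc9a5 and Slc9a8 were at -0.77 and Slc9a3 and Slc9a9 at -0.75. With 8 arrays and 6 degrees of freedom left these are descriptions of these hearts, which share each array's normalization. By the same measure over the same 8 arrays, the genes most like Slc9a7 among 15085 others were Dok1 (r = 0.995), an adaptor of tyrosine kinase signalling, the ribosomal protein gene Rpl5 (0.994) and Bmp1 (0.992), which encodes a procollagen C-proteinase. Dok1 differed between the genotypes by 0.66 ± 0.18, Bmp1 by 0.35 ± 0.17 and Rpl5 by -0.11 ± 0.11. Those most like Slc9a2 were Mob2 (0.983), the peptide transporter gene Slc15a2 (0.979) and Mir329 (0.975). Slc15a2 differed by -0.45 ± 0.19, Mob2 by -0.14 ± 0.10 and Mir329 by 0.34 ± 0.17, so likeness within groups and the direction between them went apart for Mir329. The closest to Slc9a8 were Gm14827 (0.984), Emd (0.980), which encodes the nuclear envelope protein emerin, and Pank4 (0.977). The closest to Slc9a3 were Dhodh (0.963), Btn1a1 (0.957) and Gm11413 (0.953), to Slc9a5 Dusp2 (0.971), Fbln7 (0.969) and Ifrd2 (0.969), and to Slc9a9 Mir665 (0.967), Wnt5a (0.947) and Arhgdib (0.940). Each is the top of a search through 15085 genes.

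Of 4 further family genes measured, 1 passed the filter. Slc9b2, a sodium-proton antiporter of the NHA branch, had signals of 3.87, 3.97, 3.80 and 3.58 in control and 4.12, 3.85, 3.97 and 4.07 in knockout hearts, a difference of 0.20 ± 0.10 with overlap between the groups. It was 0.12 without control replicate 4 and 0.11 without knockout replicates 1 and 4 together. Slc9a4, Slc9b1 and the sperm exchanger gene Slc9c1 lay under the filter, with mean signals of 3.34, 3.25 and 2.32 in control and 3.21, 3.31 and 2.41 in knockout hearts. Slc9a4 lies next to Slc9a2 on the chromosome in the RefSeq gene table, and its difference of -0.13 ± 0.11 came with overlapping groups. Mfsd9, on the other side of Slc9a2, differed by 0.07 ± 0.12. The genes beside Slc9a7, Chst7 and Rp2, differed by 0.18 ± 0.10 and -0.03 ± 0.08. Beside the members with small differences, neighbours could differ by more than the member: B4galt5 beside Slc9a8 by 0.34 ± 0.12, Chst2 beside Slc9a9 by 0.25 ± 0.11 and Cep72 beside Slc9a3, under the filter, by 0.12 ± 0.13. The others measured beside these members were Exoc3 (-0.09 ± 0.09), Fhod1 (0.04 ± 0.10), Dipk2a (0.06 ± 0.13) and Plekhg4, also under the filter (-0.10 ± 0.16). The measured neighbours of all 6 genes ran from -0.13 to 0.34.

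The RefSeq promoter table (GRCm38.p6) held 5 of the 6 genes, all but Slc9a2. Because CITED4 is known as a partner of TFAP2 factors, the 250 bases before each start were searched for GCCNNNGGC, the TFAP2 consensus, which reads the same on both strands. The promoters below are those of Slc9a7, with the largest difference among the 5, and of Slc9a8 and Slc9a5, which each held 1 match, shown in capitals. They lie at chrX:20291828-20292077 (minus strand), chr2:167421460-167421709 (plus strand) and chr8:105348008-105348257 (plus strand) and are written 5′ to 3′ along the gene's strand.
Slc9a7: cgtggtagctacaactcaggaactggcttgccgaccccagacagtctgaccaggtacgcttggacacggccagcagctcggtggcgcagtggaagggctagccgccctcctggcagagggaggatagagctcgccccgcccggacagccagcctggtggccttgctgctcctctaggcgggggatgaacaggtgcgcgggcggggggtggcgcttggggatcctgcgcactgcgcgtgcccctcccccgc
Slc9a8: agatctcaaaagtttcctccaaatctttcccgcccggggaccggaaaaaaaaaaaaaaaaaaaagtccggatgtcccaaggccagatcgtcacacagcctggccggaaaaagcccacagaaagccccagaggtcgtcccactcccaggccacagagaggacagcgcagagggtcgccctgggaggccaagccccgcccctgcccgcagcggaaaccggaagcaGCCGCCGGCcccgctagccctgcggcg
Slc9a5: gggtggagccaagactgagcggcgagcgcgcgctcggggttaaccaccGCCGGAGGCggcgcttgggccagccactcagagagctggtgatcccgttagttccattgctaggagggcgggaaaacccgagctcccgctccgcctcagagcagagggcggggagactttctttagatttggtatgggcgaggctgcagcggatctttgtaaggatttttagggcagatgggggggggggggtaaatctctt
The match began 27 bases before the start in Slc9a8 and 202 bases before it in Slc9a5, and neither shared a base with another motif searched. The consensus was present in 2 of the 5 promoters and in 13.7% of all 32851 promoters of the table. Slc9a8 and Slc9a5 had differences of -0.10 and -0.13, and these letters were not in the window of Slc9a7. The GC box GGGCGG, searched on both strands, was in 4 of the 5 (all but Slc9a9) and in 32.7% of all. The hypoxia response cores ACGTG and GCGTG, also on both strands, were in 1 (Slc9a3) and 2 (Slc9a3 and Slc9a7) of the 5 and in 16.6% and 28.2% of all. TATAAA and CCAAT were in 0 of the 5 and in 12.4% and 33.8% of all. The GC content was 69.6% for Slc9a7, 67.6% for Slc9a3, 62% for Slc9a8 and Slc9a5 and 42.8% for Slc9a9, against a median of 52.4%. A match describes the sequence and is not evidence of binding.

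Genes of acid-base and sodium handling that work beside the exchangers were higher and lower in like numbers. Of 87 genes in 6 lists 73 were measured and 62 were tested, 35 of them higher and 27 lower in the knockout. With limma 0 passed after adjustment over all genes, and 9 higher and 4 lower had an unadjusted p under 0.05, which is 21.0% of them against 11.2% of all genes. This count was 5 without knockout replicates 1 and 4 together, where 617 of all genes had such a p. It was 6 without knockout replicate 1, 8 without knockout replicate 4, and 7, 7 and 8 without control replicates 2, 3 and 4. In these fits the count over all genes fell too, to 987, 1058, 1056, 1109 and 1156 in the same order. The list count was 14, 11 and 13 without control replicate 1, knockout replicate 2 and knockout replicate 3. Over all genes it was 2154, 2390 and 2170 there. With the mean of all probe sets of a gene the list count was 11 (7 higher), and likewise with arrays set to a common median. Among the genes named below, Msn and Car9 each had 2 probe sets, of which that with the higher mean was used. The groups did not overlap in 3 of the 62 (4.84%, against 5.23% of all genes). Adjusted p-values of the genes named in the following paragraphs ran from 0.421 to 0.765.

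Among regulators of the exchangers 6 of 13 were higher and 7 lower (median -0.02, unadjusted p under 0.05 in 4, all higher). Slc9a3r1, which encodes the scaffold NHERF1 that ties SLC9A3 to the membrane skeleton, had signals of 4.90, 5.10, 5.12 and 5.29 in control and 5.50, 5.27, 5.52 and 5.33 in knockout hearts. The difference was 0.30 ± 0.10, and knockout replicate 2 lay just under the highest control heart. Msn, the membrane-skeleton linker moesin, differed by 0.42 ± 0.17 and was highest in knockout replicates 1 and 4 (10.93 and 10.75) and control replicate 1 (10.40), the hearts with the most fibroblast marker signal. The secretory carrier membrane proteins Scamp5 and Scamp2, which bind exchangers of organelles, differed by 0.27 ± 0.10 and 0.19 ± 0.08.

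Among bicarbonate and chloride transporters 4 of 9 were higher and 5 lower (median -0.02, unadjusted p under 0.05 in 1, lower). Slc4a4, the sodium-bicarbonate cotransporter NBCe1 that brings base into heart muscle cells, had signals of 7.59, 7.50, 7.74 and 7.71 in control and 7.00, 7.34, 7.49 and 7.04 in knockout hearts. All knockout values lay below all control values, the nearest by little, and the difference was -0.42 ± 0.12. Knockout replicates 1 and 4 were the lowest hearts. Slc4a11, Slc26a6 and Slc4a8 differed by 0.13 ± 0.09, -0.12 ± 0.14 and 0.09 ± 0.10, with overlapping groups. Among carbonic anhydrases, which turn carbon dioxide into bicarbonate and protons, 5 of 10 were higher and 5 lower (median 0.02, unadjusted p under 0.05 in 1, higher). Car9, the hypoxia-induced surface form, differed by 0.24 ± 0.11, the mitochondrial Car5b by 0.45 ± 0.24, and Car2 and Car4 by -0.38 ± 0.22 and -0.34 ± 0.23. All 4 overlapped between the groups.

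The lactate and proton transport list held the widest differences, with 4 of 7 higher and 3 lower (median 0.13, unadjusted p under 0.05 in 2 higher and 1 lower). Slc16a7, the high-affinity carrier MCT2, had signals of 7.01, 7.57, 7.79 and 7.63 in control and 6.15, 6.88, 7.42 and 6.54 in knockout hearts, a difference of -0.75 ± 0.26. Slc16a3, the lactate exporter MCT4, had signals of 5.27, 5.10, 5.15 and 5.07 in control and 6.10, 5.03, 5.50 and 6.06 in knockout hearts, a difference of 0.52 ± 0.21. Knockout replicates 1 and 4 had the lowest Slc16a7 and the highest Slc16a3 signals of all hearts. Knockout replicate 2 had the lowest Slc16a3 signal of all, and knockout replicate 3 lay above every control for Slc16a3 and inside the control range for Slc16a7. The proton channel gene Hvcn1, known from immune cells, differed by 0.28 ± 0.11, and Slc16a8 by 0.18 ± 0.12.

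In sodium and calcium handling 7 of 10 were higher and 3 lower (median 0.02, unadjusted p under 0.05 in 1 higher and 1 lower). This split turned to 4 higher and 6 lower without control replicate 3 (median -0.01) and without knockout replicates 1 and 4 together (median -0.01). Fxyd5, a regulator of the sodium pump, had signals of 7.48, 7.27, 7.29 and 7.40 in control and 7.67, 7.57, 7.69 and 7.65 in knockout hearts, a difference of 0.28 ± 0.08 with no overlap. Slc12a2, the sodium-potassium-chloride cotransporter, differed by -0.20 ± 0.09, the pump subunit Atp1b1 by 0.20 ± 0.12 and Slc8a2, a sodium-calcium exchanger, by -0.14 ± 0.09. Among ion transporters of organelles, where Slc9a7, Slc9a8 and Slc9a9 act, 9 of 13 were higher and 4 lower (median 0.08, unadjusted p under 0.05 in 1 higher and 1 lower). The endosomal chloride-proton exchangers went in opposite directions. Clcn5 had signals of 5.34, 5.36, 5.19 and 5.36 in control and 5.84, 5.38, 5.41 and 5.80 in knockout hearts, with no overlap. The difference was 0.30 ± 0.12. Its groups were 0.015 apart at the nearest, and knockout replicates 1 and 4 were its highest hearts. Clcn3 differed by -0.31 ± 0.12 with overlap. Tmem165, a Golgi ion transporter, and Tpcn2, a lysosomal channel, differed by 0.19 ± 0.09 and 0.20 ± 0.10.

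**Figure D5:**
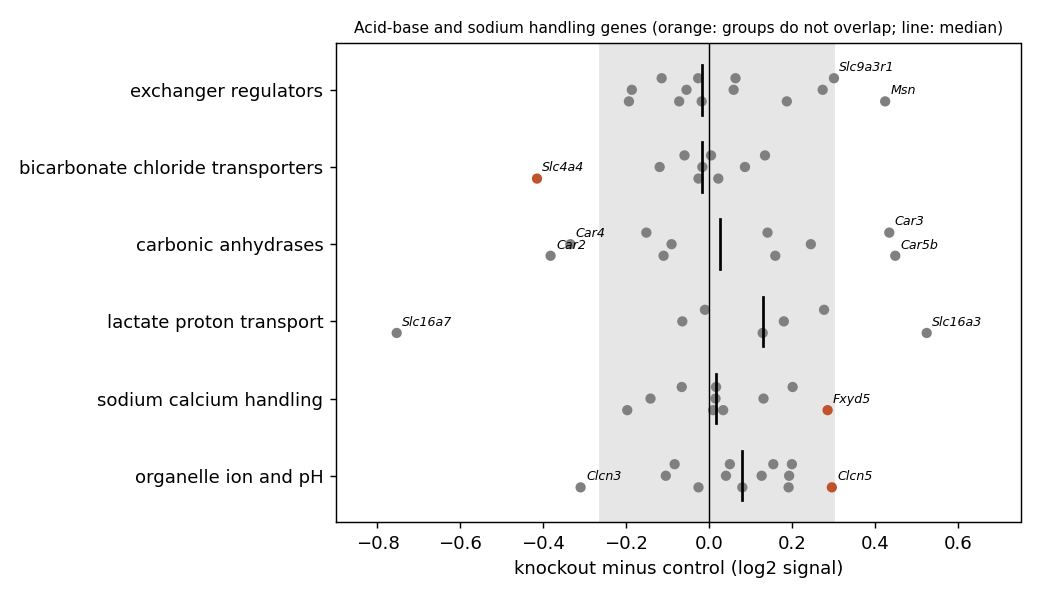
Knockout minus control difference (log2) of each tested gene of 6 lists (points; orange where the groups do not overlap), with each list's median (line) and the band that holds the 5th to 95th percentile of all genes tested. The medians lie between -0.02 and 0.13, and Slc4a4, Fxyd5 and Clcn5 are the genes without overlap.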

How the data were processed

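Biotin-labelled RNA of whole frozen hearts was hybridised to Affymetrix arrays, per the labels' protocols. The deposited values are the authors' log2 signals of 41345 probe sets for 8 arrays. RMA and limma are named, per the submitters' processing notes, without versions. RMA equalises the distributions of the arrays and would hide a change common to most genes. No genome build, date or batch is stated in the sources used here. Probe sets with exactly 1 symbol (23521; 1814 had several and 16010 none) were reduced to the one with the highest mean per gene, which gave 22180 genes. Of these 15086 reached the 40th percentile of probe set means, 3.80, and were tested with limma 3.58.1 in R 4.3.3 (lmFit and eBayes, Benjamini-Hochberg, 0.05). Errors of Slc9 and neighbouring genes come from the same fit without the filter. The limma step was tested on simulated data. The members, lists, likeness rule and alternatives were chosen with earlier results of these data known. From each list up to 4 genes with the smallest p were named. Epcam, Krt19, Dcn, Pdgfra, Postn and the other cell type markers named are from fixed lists, and neighbours were named for their position. Intervals of the 6 genes do not allow for their choice. Promoters are from RefSeq, GRCm38.p6. Alternatives covered the filter (none, 60th percentile), normalization, probe set averaging, variance trend, array weights, a block for the replicate number and leaving out arrays.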

Additional observations from a re-analysis of the deposited data

Results flagged for a closer look

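In groups of 4 hearts, 7 single values among 70 groups of 35 genes lay farther from the other 3 hearts than Dixon's 95% limit allows, where chance flags about 1 group in 20. Slc9a7 in control replicate 1 was at 6.41 against 6.01 to 6.03 in the other controls, and the same heart had the highest fibroblast marker mean of the controls. Msn in that heart was at 10.40 against 9.99 to 10.06. Slc9a4, under the filter on low values, was at 3.61 in control replicate 4 against 3.23 to 3.28. Slc26a6 was at 5.49 in control replicate 3 against 5.03 to 5.09, and Clcn5 in the same heart at 5.19 against 5.34 to 5.36. Slc4a8 was at 3.60 in control replicate 4 against 3.83 to 3.86, and at 4.11 in knockout replicate 1 against 3.78 to 3.80.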

How the results depend on the processing

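The number of arrays, 4 per group, limits every value. The 0 genes called stayed 0 under every alternative run, an adjusted p of 0.1 included. Slc9a2, Slc9a5, Slc9a7, Slc9a8 and Slc9a9 kept their sign in every alternative run for them, Slc9a3 in 13 of 16. A kept sign says little where the difference came close to 0. Slc9a8 was at -0.0014 without knockout replicates 1 and 4 together, and Slc9a9 at -0.013 without control replicate 1. The 95% intervals of Slc9a5, Slc9a8 and Slc9a9 included 0. The alternatives that kept all 8 arrays gave Slc9a2 from -0.61 to -0.57 and Slc9a7 from 0.49 to 0.51. Without knockout replicates 1 and 4 together, which was chosen after seeing the data, Slc9a7 was 0.11 and Slc9a5 -0.25. There the genes at an unadjusted p under 0.05 numbered 617, those of the 6 pathway lists 5, and the medians of exchanger regulators and organelle transporters were 0.026 and 0.024. With single arrays left out, the genes at an unadjusted p under 0.05 ran from 987 (without knockout replicate 1) to 2390 (without knockout replicate 2), with 1056, 1109 and 1058 without control replicate 2, control replicate 3 and knockout replicate 4, and those of the 6 lists from 6 to 14. List medians then ran from -0.044 to 0.050 for bicarbonate and chloride transporters, from -0.11 to 0.053 for carbonic anhydrases, from -0.034 to 0.015 for exchanger regulators, from -0.0059 to 0.038 for sodium and calcium handling, from 0.083 to 0.13 for lactate and proton transport and from 0.047 to 0.090 for organelle transporters. With the filter at the 60th percentile the medians were -0.13 for carbonic anhydrases, -0.038 for lactate and proton transport and 0.10 for organelle transporters, over fewer genes. At that filter Slc9a3 and Slc9a5 were left out. The cause of these shifts was not tested. Deviations of same-numbered hearts correlated at 0.36, 0.01, 0.28 and -0.03. Control replicates 1 and 3 were most like the knockout heart of the same number, and control replicates 2 and 4 were not. The labels name no pairs, so the numbers are not taken as pairs, and a factor shared by number was not tested. With the replicate number as a block 0 genes passed, 2177 had an unadjusted p under 0.05, 15 of them in the 6 lists, and the differences of the 6 genes were the same by construction (Slc9a2 -0.57). In the fit with the filter, the SE of Slc9a7 was 0.13 with the block and 0.21 without it. That of Slc9a2 was 0.10 and 0.09, and the SEs of the other members were also larger with the block.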
